A study of Mus musculus with 12 samples.

Results

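The cytochrome P450 genes described here are the 82 of 19212 genes in the expression table whose mouse symbol reads Cyp, a family number, a subfamily letter and a gene number. The choice used names alone and no measured value, and Cyp51, whose symbol has another form, was left out. Each gene's values were summed over its transcripts. Of the 82 genes, 29 reached a mean of at least 1 TPM (a level corrected for transcript length and library size) in at least 1 of 4 groups, 53 stayed below it in all 4, and Cyp2c37, Cyp2c69 and Cyp2d12 had 0 counts in all 12 libraries.

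P450 enzymes carry a heme group and use oxygen to hydroxylate or epoxidize small lipophilic molecules. Those of the endoplasmic reticulum take electrons from the reductase Por, some with help from cytochrome b5, and the mitochondrial ones take them from the ferredoxin Fdx1. Some clear drugs and inhaled compounds, while others make or remove signals such as epoxides of arachidonic acid, oxysterols, retinoic acid and vitamin D. In mouse lung the family is known above all from club cells, the secretory cells of the small airways, whose enzyme Cyp2f2 turns naphthalene into a toxic epoxide.

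The study compared mouse lung tumours in 2 experiments with 3 libraries a group. Lung tumours were grown in mice from Lewis lung carcinoma cells (LLC, 1 mouse carcinoma line). OTUB1_KD tumours came from cells that received a lentivirus against Otub1, a deubiquitinase, and NC tumours from cells that received a negative control lentivirus. In the other experiment, mice of the SFD@M group received an agent known here only by that name and mice of the Blank group received saline; both are labelled wild type. The labels name no strain, age or number of animals and do not say that each library is a separate animal, so the p-values measure the spread between these libraries, which may be partly technical.

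Library totals were 16062806 to 18028828 counts. Otub1 itself was at 57.1, 44.1 and 67.1 TPM in OTUB1_KD, against 84.8, 82.3 and 77.5 TPM in NC, a log2 change of -0.36 ± 0.18 (SE) that missed the threshold (edgeR adjusted p = 0.112), and it was also lower in SFD@M than in Blank (log2 change -0.71 ± 0.05, adjusted p = 6e-06). All 12 libraries are labelled lung cancer, but markers of club, alveolar type 2, ciliated and endothelial cells and of leukocytes were at 0 or low in NC and Blank. The 3 markers of alveolar type 1 cells, like those of fibroblasts, were above 1 TPM in every group and summed to 1135 to 3529 TPM in OTUB1_KD and 48.7 to 57.0 TPM in NC, and to 2611 to 3054 TPM in SFD@M and 42.6 to 43.7 TPM in Blank. The 3 club cell markers summed to 89681 to 204442 TPM in OTUB1_KD and 0.56 to 2.86 TPM in NC, and to 241633 to 242720 TPM in SFD@M and 0 to 2.22 TPM in Blank, with Scgb3a2 and Scgb3a1 at 0 in all NC and Blank libraries. The 3 endothelial markers summed to 285 to 862 TPM in OTUB1_KD and at most 0.73 TPM in NC, and to 760.3 to 1004 TPM in SFD@M and at most 0.5 TPM in Blank. Markers of dividing cells ran the other way, at 24.2 to 129 TPM in OTUB1_KD and 480.3 to 506 TPM in NC, and at 2.45 to 12.1 TPM in SFD@M and 485 to 501 TPM in Blank. OTUB1_KD library 1 stood apart within its group, with the lowest endothelial, alveolar and ciliated marker sums and the highest sum for dividing cells. Markers of hepatocytes, the main P450 cells of the body, summed to no more than 6.69 TPM in any library. In such bulk tissue, fewer cells of a type and less RNA per cell cannot be told apart.

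The summed level of the family was higher in OTUB1_KD than in NC and higher in SFD@M than in Blank. The 82 genes summed to 1234, 2598 and 2152 TPM in the OTUB1_KD libraries, against 150.1, 150.3 and 152 TPM in the NC libraries. They summed to 2996, 3647 and 4091 TPM in the SFD@M libraries, against 125.7, 125.7 and 124 TPM in the Blank libraries. Neither pair of groups overlapped. Few genes carried these sums, with Cyp2f2 alone at 53.5 to 63.8% in OTUB1_KD and 57.6 to 67.9% in SFD@M, and single members differed in direction. The number of genes at 1 TPM or more was 27 in OTUB1_KD and 14 in NC, and 27 in SFD@M and 11 in Blank. Of these genes, 10 reached 1 TPM in all 4 groups, 13 reached it in OTUB1_KD and SFD@M but in neither NC nor Blank, and only Cyp2u1 reached it in NC and Blank and in neither of the others. Cyp2r1 (1.04 TPM in SFD@M) and Cyp2ab1 (1.18 TPM in OTUB1_KD) lay just above this limit, and Cyp27b1 (0.997 TPM in NC) and Cyp2c55 (0.99 TPM in Blank) just below it.

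**Figure D1:**
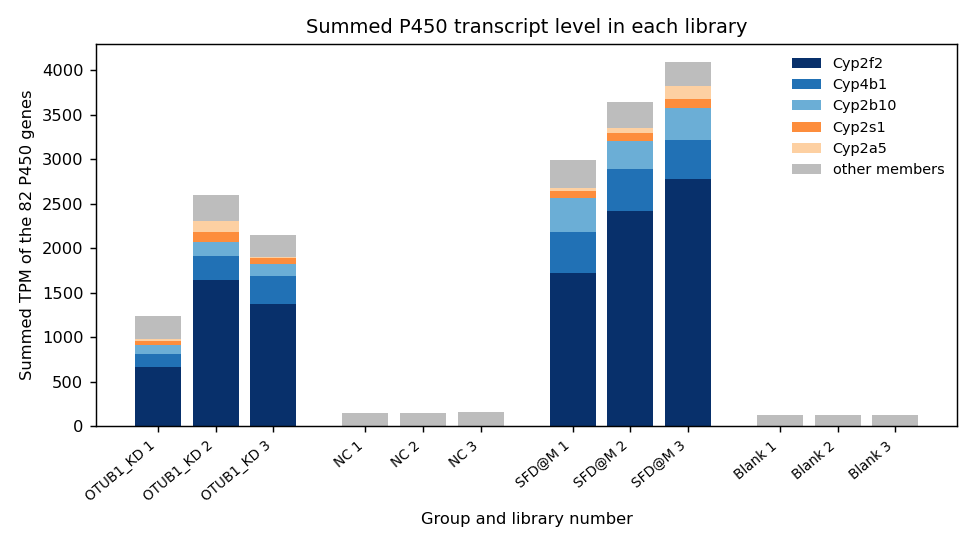
Summed TPM of the 82 P450 genes in each of the 12 libraries, stacked by the 5 genes with the highest levels and all others. The bars reach 1234 to 2598 TPM in OTUB1_KD and 2996 to 4091 TPM in SFD@M, mostly Cyp2f2, and 124 to 152 TPM in NC and Blank.

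The count of genes called (edgeR quasi-likelihood test, Benjamini-Hochberg adjusted p under 0.05 over all genes tested) has to be read against a large background. In OTUB1_KD against NC, 65.7% of all 14785 genes tested were called, 39.9% higher and 25.8% lower. Of the 82 P450 genes 30 had enough counts to be tested, of which 19 were higher, 4 lower and 7 not called. In SFD@M against Blank, 88.1% of 14824 genes were called, 49.5% higher and 38.7% lower, and of 32 P450 genes tested 26 were higher, 4 lower and 2 not called. The median log2 change of the tested members was 2.54 in the knockdown experiment, against 0.16 over all genes, and 4.19 in the treatment experiment with genes at 0 to 3 counts set to their bound or ratio, against 0.23 over all genes. A gene that passed the filter only through the group where it is high had to differ, so these counts and medians describe the tested members and not the family. The genes called higher in OTUB1_KD included 18 of the 26 called higher in SFD@M (94.7% of the 19 and 69.2% of the 26). Among these 18, Cyp4b1, Cyp2b10, Cyp2j9, Cyp4f15 and Cyp4f39 had 0 counts in NC and Blank and could only be called higher. The overlap over all genes was not counted, so this one cannot be read as particular to P450 genes. Cyp27b1 and Cyp2u1 were called lower in both experiments. The 4 lower calls in OTUB1_KD became 2 without NC library 2, where 2667 of 15201 genes were lower.

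**Figure D2:**
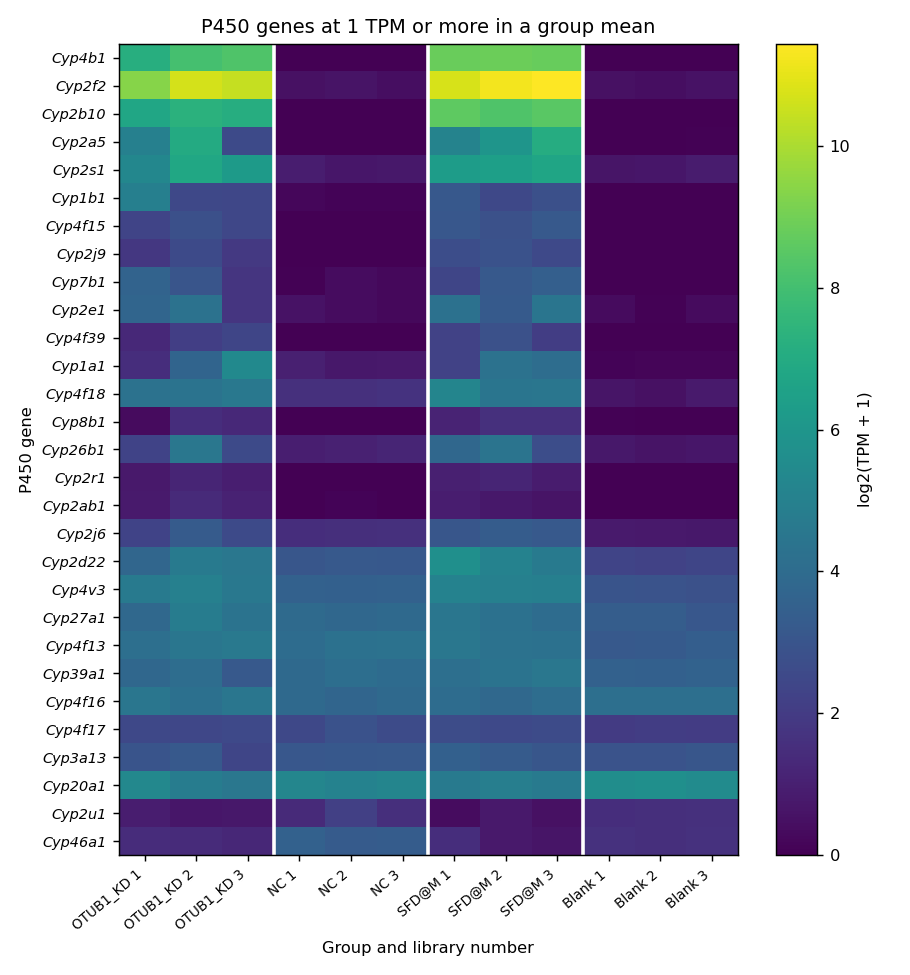
Level of the 29 P450 genes at 1 TPM or more in a group mean, as log2(TPM + 1), in each library, ordered from those highest in OTUB1_KD and SFD@M relative to NC and Blank to those lowest. Genes at the top are at or near 0 (dark) in all 6 NC and Blank libraries, and Cyp46a1 at the bottom is highest in NC.

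Genes of foreign compound oxidation held most of the signal. They comprise 31 of the 82 genes, in families 1 to 3 of the nomenclature, and summed to 901, 2104 and 1664 TPM in OTUB1_KD against 18.8 to 19.1 TPM in NC, and to 2317, 2958 and 3456 TPM in SFD@M against 12.2 to 14.1 TPM in Blank. In the knockdown experiment 9 of 10 tested were higher and Cyp3a13 was not called, where 39.9% of all genes were higher. In the treatment experiment 10 of 10 were higher, where 49.5% of all genes were. Members at or near 0 counts in NC and Blank, such as Cyp2b10 and Cyp2a5, passed the filter through the high group and could only be called higher. Cyp2f2 alone made up 53.5 to 63.8% of the summed P450 TPM in OTUB1_KD and 57.6 to 67.9% in SFD@M, against 0.237 to 0.386% in NC and Blank. It was at 660.2, 1640.4 and 1372 TPM in OTUB1_KD, against 0.44, 0.54 and 0.36 TPM in NC, a log2 change of 11.60 ± 0.58 (SE, adjusted p = 2.02e-05). In SFD@M it was at 1725, 2421 and 2776 TPM, against 0.42, 0.36 and 0.48 TPM in Blank, a log2 change of 12.67 ± 0.30 (adjusted p = 2.23e-08). No library of one side came near any of the other. Set against the club cell secretoglobin Scgb1a1, Cyp2f2 gave 7.31, 8.39 and 15.6 TPM per 1000 TPM of Scgb1a1 in OTUB1_KD and 7.24, 10.3 and 11.9 in SFD@M, so that the ranges of both groups overlapped. The part of club cell RNA in the level of Cyp2f2 was not tested beyond this ratio.

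Cyp2b10, the mouse enzyme known for its induction by phenobarbital, was at 108, 156 and 137 TPM in OTUB1_KD and 386, 314 and 363 TPM in SFD@M, with 0 counts in all 6 NC and Blank libraries. Against a floor of 3 counts over the group this was at least 2599-fold higher than in NC and at least 7401-fold higher than in Blank. Cyp2s1, an epithelial P450 found outside the liver, was at 37.7, 111 and 73.2 TPM in OTUB1_KD, against 0.86, 0.62 and 0.66 TPM in NC (log2 change 6.87 ± 0.52, adjusted p = 7.00e-05). It was at 79.1, 87.0 and 106 TPM in SFD@M, against 0.55, 0.63 and 0.83 TPM in Blank (log2 change 7.34 ± 0.18, adjusted p = 2.78e-08). Its low levels in NC and Blank overlapped. Cyp2d22 was present on both sides, at 12.7, 25.3 and 21.9 TPM in OTUB1_KD against 7.38, 8.12 and 7.75 TPM in NC, and at 51.2, 32.4 and 24.1 TPM in SFD@M against 4.03, 3.76 and 4.3 TPM in Blank. Its log2 changes were 1.53 ± 0.28 (adjusted p = 0.0031) and 3.43 ± 0.30 (adjusted p = 1.76e-05).

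Cyp2ab1 had 97 counts in OTUB1_KD and 2 in NC, a ratio of 43.6 with a counting interval of 12.1 to 360.3, and 57 in SFD@M and 0 in Blank, at least 18.7-fold higher. Cyp3a13 was the only Cyp3a gene above 1 TPM. It was at 6.93, 8.04 and 4.19 TPM in OTUB1_KD against 7.65, 7.86 and 8.18 TPM in NC, and at 10.5, 8.79 and 7.26 TPM in SFD@M against 6.65, 6.57 and 7.28 TPM in Blank. Both pairs of groups overlapped. The log2 change of 0.54 ± 0.14 in SFD@M (adjusted p = 0.007) was 0.30 above the median of all genes.

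The strongest members sit side by side with silent ones. In the gene order of the RefSeq table for GRCm38.p6, 54 of the 82 genes lie in 7 clusters of at least 5 members, and 13 of those 54 reached 1 TPM in SFD@M, as did 13 of the 23 members that have no other family member nearby. The cluster on chromosome 7 holds 13 genes, Cyp2s1, Cyp2b10, Cyp2b13, Cyp2b9, Cyp2a4, Cyp2b23, Cyp2b19, Cyp2g1, Cyp2a5, Cyp2a22, Cyp2a12, Cyp2f2 and Cyp2t4. Cyp2s1, Cyp2b10, Cyp2a5 and Cyp2f2 averaged 53.5 TPM or more in OTUB1_KD and 77.4 TPM or more in SFD@M, while the other 9 stayed at or below 0.213 TPM in every group mean. On chromosome 19, none of 10 Cyp2c genes reached 1 TPM in any group, and on chromosome 5 none of the 5 clustered Cyp3a genes did. Genes of both clusters are known as major liver enzymes. On chromosome 15 Cyp2d22 was the only one of 6 Cyp2d genes above 1 TPM, on chromosome 4 Cyp4b1 was the only one of 6 in its cluster and Cyp2j6 and Cyp2j9 were the only ones of 6 in theirs, and on chromosome 17 5 of 8 Cyp4f genes passed 1 TPM in OTUB1_KD and SFD@M.

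**Figure D3:**
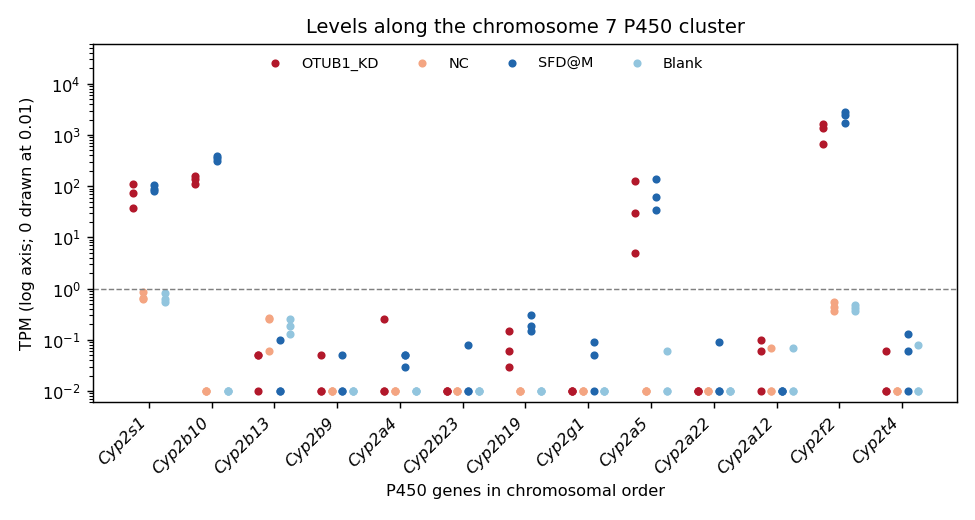
TPM on a log axis in all 12 libraries for the 13 P450 genes of the chromosome 7 cluster, in chromosomal order, with 0 drawn at 0.01 and a dashed line at 1 TPM. Cyp2s1, Cyp2b10, Cyp2a5 and Cyp2f2 rise above the line in OTUB1_KD and SFD@M, and the other 9 stay below it in every library.

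Cyp2a5, the mouse coumarin hydroxylase, and its neighbour Cyp2a4 show this contrast between near-identical genes. Their coding sequences (GENCODE M21, 1482 bases each) are 98.4% identical and their 250 bases before the start 98.0%. Even so Cyp2a5 averaged 53.5 TPM in OTUB1_KD and 77.4 TPM in SFD@M, and Cyp2a4 0.083 and 0.043 TPM in the same groups. At this likeness the split of reads between the pair is uncertain, because the deposited counts are the authors' estimates and how the authors treated reads that match both genes was not stated. Among the 13 members above 1 TPM that have a relative in their subfamily, the next closest pair was Cyp4f16 and Cyp4f37 at 92%, and the other 11 were 68.0 to 87.1% identical to their nearest relative.

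The upstream sequences of Cyp2f2, Cyp2b10 and Cyp2a5, which had high levels in this cluster, and of the near-silent Cyp2a4 for comparison, are shown as the 250 bases before the transcription start from RefSeq (GRCm38.p6, plus strand for all 4), with capitals where a script found TATAAA on the gene strand, GCGTG on either strand (the core bound by the Ah receptor, a sensor of dioxin-like compounds) or TTGCNNAA on either strand (a C/EBP half-site pair).
Cyp2f2 at chr7:27119705-27119954: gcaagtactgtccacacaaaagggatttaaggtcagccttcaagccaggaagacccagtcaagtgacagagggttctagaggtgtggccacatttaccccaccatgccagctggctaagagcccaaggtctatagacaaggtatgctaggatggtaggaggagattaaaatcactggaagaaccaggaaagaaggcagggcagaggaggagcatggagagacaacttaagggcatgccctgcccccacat
Cyp2b10 at chr7:25897408-25897657: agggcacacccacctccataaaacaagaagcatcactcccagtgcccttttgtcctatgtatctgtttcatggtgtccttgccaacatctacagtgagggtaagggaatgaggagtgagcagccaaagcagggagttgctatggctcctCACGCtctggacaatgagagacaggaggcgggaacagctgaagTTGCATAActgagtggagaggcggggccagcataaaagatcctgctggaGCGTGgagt
Cyp2a5 at chr7:26835089-26835338: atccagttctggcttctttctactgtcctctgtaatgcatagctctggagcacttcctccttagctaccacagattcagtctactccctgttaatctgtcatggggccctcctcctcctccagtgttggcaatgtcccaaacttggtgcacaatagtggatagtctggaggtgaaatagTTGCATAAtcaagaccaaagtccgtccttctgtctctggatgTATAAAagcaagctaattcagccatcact
Cyp2a4 at chr7:26306942-26307191: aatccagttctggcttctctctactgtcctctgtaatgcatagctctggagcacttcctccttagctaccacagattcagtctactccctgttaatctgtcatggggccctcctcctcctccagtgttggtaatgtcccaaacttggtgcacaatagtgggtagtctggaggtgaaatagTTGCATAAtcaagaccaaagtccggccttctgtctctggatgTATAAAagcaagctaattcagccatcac
The Cyp2f2 stretch, before the gene with the highest level, holds none of these motifs, and neither does that of Cyp2s1 or Cyp4b1. Cyp2a5 and Cyp2a4 hold TATAAA and TTGCNNAA in the same order. Promoters were given for 64 members, 71 in all, of which 16 hold TATAAA, 16 hold GCGTG and 19 hold TTGCNNAA. These are counts of promoters and not of genes. Cyp4f14 and Cyp3a25 have several that overlap, each counted for TTGCNNAA, and near-identical promoters such as those of Cyp2a5 and Cyp2a4 count separately. Over all 32851 promoters of this length the shares are 7.59%, 28.2% and 9.56%. The forkhead motif TGTTTAC on either strand is in 4 of the 71 and in 3.17% of all. A match describes letters and not binding.

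Some members of this group differed more between libraries of OTUB1_KD than Cyp2f2 did. Over the 27 genes at 1 TPM or more, the median ratio of the highest to the lowest library was 2 in OTUB1_KD and 1.44 in SFD@M. In OTUB1_KD 16 of 27 genes were lowest in library 1, and 16 were highest in library 2. Cyp2a5 was at 30.5, 125 and 4.89 TPM in the OTUB1_KD libraries and 33.7, 61.8 and 137 TPM in the SFD@M libraries, with 0 counts in NC and 1 in Blank. OTUB1_KD library 3, the lowest for Cyp2a5, had 1372 TPM of Cyp2f2, so the ratio of Cyp2a5 to Cyp2f2 varied from 3.56 to 76.3 per 1000 within that group. Cyp2a5 was at least 944-fold higher in OTUB1_KD than in NC, and its ratio of SFD@M to Blank was 4350 with a 95% counting interval of 781 to 171830. It was called in both (adjusted p = 0.0087 and 3.54e-05). Its fitted log2 change, which against so few counts depends on the prior count, was 12.96 in OTUB1_KD and 11.27 without OTUB1_KD library 2, and 11.63 in SFD@M, 10.92 without SFD@M library 3 and 13.51 without Blank library 3, which held the only Blank count.

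Cyp1a1, the best known target of the Ah receptor, was at 1.78, 11.9 and 42.7 TPM in OTUB1_KD, against 0.98, 0.66 and 0.74 TPM in NC (log2 change 4.73 ± 1.11, adjusted p = 0.0085). It was at 3.85, 19.2 and 15.9 TPM in SFD@M, against 0.08, 0.12 and 0.12 TPM in Blank (log2 change 7.15 ± 0.86, adjusted p = 1.12e-04). Library 1 was the lowest of both OTUB1_KD and SFD@M, though the labels give no pairing of replicates across groups. Cyp1b1, an Ah receptor target of stromal cells that oxidizes oestradiol, was at 29.4, 4.57 and 4.46 TPM in OTUB1_KD against 0.14, 0.07 and 0.07 TPM in NC (log2 change 7.12 ± 1.08, adjusted p = 0.0013). Without OTUB1_KD library 1, the highest, its log2 change was 5.59. In SFD@M Cyp1b1 was at 7.96, 4.59 and 5.86 TPM, with 1 count in all of Blank, a ratio of 1147 with a counting interval of 206 to 45306. The 3 fibroblast markers, all above 1 TPM in each group, were highest in library 1 of OTUB1_KD and of SFD@M, as was Cyp1b1, at 757, 624 and 449 TPM in OTUB1_KD and 536, 424 and 455 TPM in SFD@M, against 44.8 to 48.5 TPM in NC and 53.4 to 55.0 TPM in Blank. Their part in the level of Cyp1b1 was not tested. Cyp1a1 and Cyp1b1, related enzymes under one receptor, were highest in different OTUB1_KD libraries, the third and the first.

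The upstream bases of Cyp1a1 and Cyp1b1 are printed because both hold GCGTG or its reverse complement CACGC (RefSeq, GRCm38.p6), with the Cyp1a1 gene on the plus and the Cyp1b1 gene on the minus strand and capitals as above.
Cyp1a1 at chr9:57697363-57697612: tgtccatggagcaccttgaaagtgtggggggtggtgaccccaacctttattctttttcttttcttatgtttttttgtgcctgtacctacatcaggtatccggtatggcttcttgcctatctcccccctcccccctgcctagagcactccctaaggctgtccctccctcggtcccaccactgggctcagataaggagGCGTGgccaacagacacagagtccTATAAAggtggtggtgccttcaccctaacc
Cyp1b1 at chr17:79715062-79715311: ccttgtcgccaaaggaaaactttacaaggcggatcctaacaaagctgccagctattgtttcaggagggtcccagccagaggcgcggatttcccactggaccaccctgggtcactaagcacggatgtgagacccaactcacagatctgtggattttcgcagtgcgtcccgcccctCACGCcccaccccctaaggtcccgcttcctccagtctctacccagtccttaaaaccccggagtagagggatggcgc
In Cyp1a1 the match lies 54 bases before the start and a TATAAA follows 30 bases before it. In Cyp1b1 the match lies 76 bases before the start and there is no TATAAA.

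Cyp2e1, which oxidizes ethanol and is also made by fat cells, was at 12.3, 18.95 and 2.37 TPM in OTUB1_KD against 0.46, 0.31 and 0.19 TPM in NC (log2 change 5.30 ± 0.88, adjusted p = 0.0019). It was at 18.2, 8.4 and 20.5 TPM in SFD@M against 0.25, 0.06 and 0.25 TPM in Blank (log2 change 6.61 ± 0.57, adjusted p = 1.56e-05). The 2 fat cell markers, Adipoq and Plin1, summed to 17.6, 23.0 and 0.16 TPM in the same OTUB1_KD libraries and to 13.9, 9.58 and 23.5 TPM in the same SFD@M libraries, against 0.1 TPM in each NC library, where Plin1 was at 0, and 0.06 to 0.1 TPM in Blank. The order of the libraries was the same for Cyp2e1 and for these markers in both groups. The club cell markers had that order too, at 94473, 204442 and 89681 TPM in OTUB1_KD and 242013, 241633 and 242720 TPM in SFD@M, where they lay close together. So did the 2 heart muscle markers, at 39.5, 167 and 38.8 TPM in OTUB1_KD and 119.8, 103.8 and 130.8 TPM in SFD@M. The order thus does not single out a cell type, and the part of none of these lists in the result was tested.

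**Figure D4:**
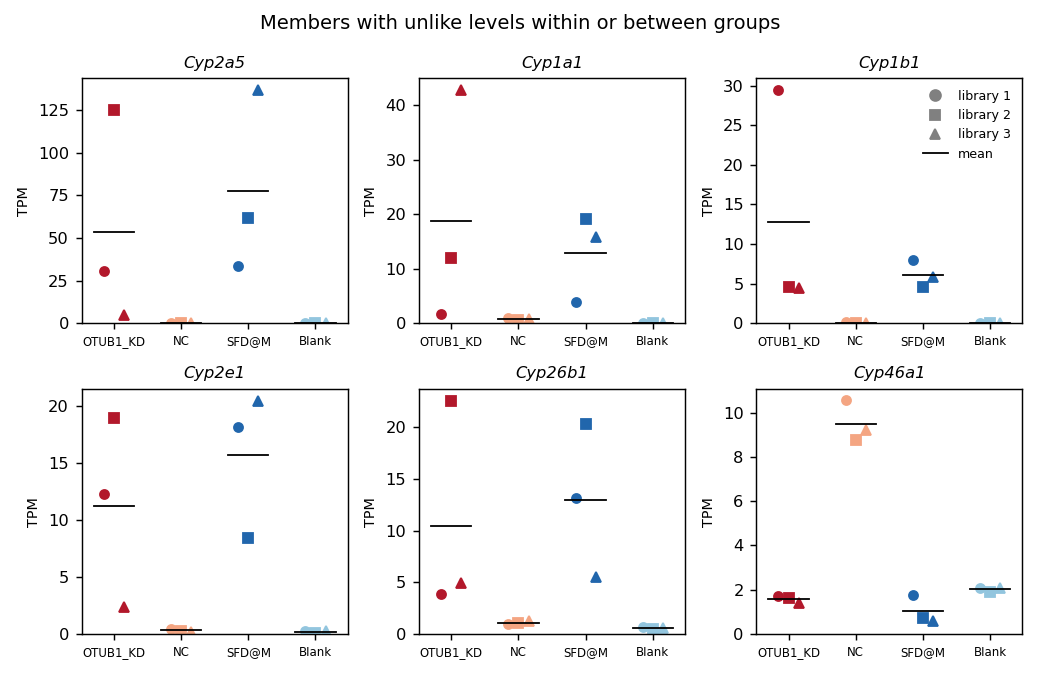
TPM in each library (circles library 1, squares library 2, triangles library 3) with the group mean as a line, for 6 members. Among the OTUB1_KD libraries Cyp2a5 was highest in library 2 and lowest in library 3, Cyp1a1 highest in library 3 and Cyp1b1 in library 1. Over all groups Cyp46a1 was highest in the 3 NC libraries.

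Fatty acid and leukotriene hydroxylases, 17 genes that comprise Cyp2u1 and the members of family 4, summed to 238, 373 and 418 TPM in OTUB1_KD against 48.4 to 53.8 TPM in NC, and to 579, 572 and 540 TPM in SFD@M against 37.6 to 39.5 TPM in Blank. In OTUB1_KD 6 of 10 tested were higher and Cyp2u1 lower, where 39.9% of all genes were higher and 25.8% lower. In SFD@M 8 of 10 were higher and Cyp2u1 lower, where 49.5% of all genes were higher and 38.7% lower. Members at 0 counts in NC and Blank could only be called higher. Cyp4b1, a lung enzyme that also bioactivates inhaled and plant toxins, led the group with 144, 269 and 311 TPM in OTUB1_KD and 455, 469 and 437 TPM in SFD@M. It had 0 counts in all 6 NC and Blank libraries and was at least 4812-fold higher in OTUB1_KD than in NC and at least 9694-fold higher in SFD@M than in Blank. Cyp4f15 and Cyp4f39, the second of which makes very long hydroxy fatty acids of the skin barrier, were also at 0 counts in NC and Blank. Cyp4f15 was at 4.08 to 5.97 TPM in OTUB1_KD and 6.14 to 8.08 TPM in SFD@M, at least 92.1-fold and at least 166-fold higher. Cyp4f39 was at 1.46 to 4.23 TPM in OTUB1_KD and 3.19 to 6.16 TPM in SFD@M, at least 84.5-fold and at least 133-fold higher.

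Cyp4f18, which inactivates leukotriene B4 in mouse neutrophils, was at 18.6, 19.4 and 22.9 TPM in OTUB1_KD against 1.99, 2.00 and 2.23 TPM in NC (log2 change 3.35 ± 0.21, adjusted p = 3.59e-05). It was at 35.4, 20.95 and 21.2 TPM in SFD@M against 0.58, 0.45 and 0.76 TPM in Blank (log2 change 5.52 ± 0.34, adjusted p = 2.12e-06). The 3 leukocyte markers were Ptprc, Cd79a and Cd3e, none of them particular to neutrophils. They summed to 113 to 150.2 TPM in OTUB1_KD and at most 2.13 TPM in NC, and to 77.4 to 93.0 TPM in SFD@M and at most 1.17 TPM in Blank. Cd3e was at 0 in all NC and Blank libraries. The part of these markers in the result was not tested. Cyp4v3, a hydroxylase of medium-chain fatty acids, was at 25.5, 30.2 and 23.1 TPM in OTUB1_KD against 10.6, 10.4 and 10.7 TPM in NC (log2 change 1.48 ± 0.17, adjusted p = 3.33e-04), and at 32.5, 30.8 and 29.4 TPM in SFD@M against 6.88, 6.68 and 6.16 TPM in Blank (log2 change 2.5 ± 0.08, adjusted p = 5.96e-08). Cyp4f13, Cyp4f16 and Cyp4f17 were expressed on both sides. Cyp4f13 was at 17.4 to 23.8 TPM in OTUB1_KD and 15.4 to 18.7 TPM in NC (log2 change 0.51 ± 0.20, adjusted p = 0.063), and at 18.4 to 22.0 TPM in SFD@M and 8.19 to 9.77 TPM in Blank (log2 change 1.54 ± 0.13, adjusted p = 9.63e-06). Cyp4f16 was higher in OTUB1_KD (log2 change 0.78 ± 0.15, adjusted p = 0.0039), and in SFD@M it was not called on counts (0.10 ± 0.10, adjusted p = 0.354) while its TPM of 13.4 to 16.1 lay below the 16.9 to 17.2 of Blank. Its log2 change in SFD@M was positive in all fits of counts and negative in those of TPM (-0.17 and -0.18). Cyp4f17 was at 4.35 to 4.68 TPM in OTUB1_KD and 4.54 to 6.38 TPM in NC (log2 change -0.05 ± 0.21, adjusted p = 0.85), and at 4.74 to 5.25 TPM in SFD@M and 3.03 to 3.2 TPM in Blank (log2 change 1.05 ± 0.13, adjusted p = 9.77e-05). Cyp4a32, a fatty acid hydroxylase of family 4, was tested in SFD@M alone, where 35 counts stood against 0 in Blank, at least 11.5-fold higher. Cyp4f13 has 8 transcripts in the table, of which the leading one held 23.5 to 55.0% of its TPM over the 12 libraries, so the sums over transcripts mix several forms.

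Cyp2u1, a fatty acid hydroxylase, was one of the few members lower in both experiments, and its levels were low throughout. It was at 0.89, 0.63 and 0.69 TPM in OTUB1_KD against 1.54, 3.51 and 1.91 TPM in NC (log2 change -1.27 ± 0.31, adjusted p = 0.0093), and at 0.32, 0.73 and 0.44 TPM in SFD@M against 1.83, 1.95 and 2.04 TPM in Blank (log2 change -1.82 ± 0.26, adjusted p = 2.55e-04). The first of these calls was lost without NC library 2 (log2 change -1.15, adjusted p = 0.057).

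Of the 17 genes of the Cyp2c and Cyp2j subfamilies, known for epoxides of arachidonic acid, Cyp2j6 and Cyp2j9 alone reached 1 TPM in a group mean. Cyp2j6 was at 4.00, 8.77 and 4.97 TPM in OTUB1_KD against 1.78, 1.95 and 2.00 TPM in NC (log2 change 1.85 ± 0.36, adjusted p = 0.0039), and at 7.24, 9.07 and 8.3 TPM in SFD@M against 0.77, 0.74 and 0.67 TPM in Blank (log2 change 3.82 ± 0.15, adjusted p = 1.45e-07). Cyp2j9 was at 2.62, 4.93 and 2.69 TPM in OTUB1_KD and 5.56, 6.47 and 4.7 TPM in SFD@M with 0 counts in NC and Blank, at least 70.5-fold and at least 123-fold higher. Cyp2c55, an arachidonic acid hydroxylase known from mouse colon, ran the other way, with 2 counts in SFD@M and 54 in Blank, a ratio of 0.037 with a counting interval of 0.0044 to 0.13 (adjusted p = 1.01e-04), and with 3 counts in OTUB1_KD and 12 in NC, where it was not tested.

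Enzymes of bile acids and oxysterols, 6 genes, summed to 39.99, 53.8 and 32.6 TPM in OTUB1_KD against 38.5 to 39.5 TPM in NC, and to 45.97, 48.8 and 49.9 TPM in SFD@M against 21.1 to 22.7 TPM in Blank. The sums of OTUB1_KD and NC overlapped, and single genes differed in opposite directions. Cyp7b1, which hydroxylates oxysterols and steroids, was at 11.4, 7.02 and 2.39 TPM in OTUB1_KD against 0.05, 0.29 and 0.19 TPM in NC (log2 change 5.38 ± 0.78, adjusted p = 0.001), and at 4.28, 8.13 and 9.87 TPM in SFD@M with 0 counts in Blank, at least 183-fold higher. Cyp8b1, known as a sterol hydroxylase of liver that decides which bile acids form, was at 1.19, 2.01 and 2.02 TPM in SFD@M and had 1 count in Blank, a ratio of 114 with a counting interval of 20.4 to 4485 (adjusted p = 3.43e-05). In OTUB1_KD it was at 0.28, 1.86 and 1.5 TPM with 0 counts in NC, at least 24.9-fold higher but too low to be tested. Cyp27a1, the mitochondrial sterol hydroxylase, was at 13.5, 27.3 and 19.2 TPM in OTUB1_KD against 14.5, 13.1 and 14.1 TPM in NC (log2 change 0.73 ± 0.28, adjusted p = 0.052), and at 21.8, 18.5 and 15.5 TPM in SFD@M against 9.42, 9.34 and 7.67 TPM in Blank (log2 change 1.36 ± 0.16, adjusted p = 7.43e-05). Without OTUB1_KD library 1 the change against NC passed the threshold (log2 change 0.95, adjusted p = 0.0057). Cyp39a1, which hydroxylates an oxysterol, was at 13.0, 16.1 and 8.13 TPM in OTUB1_KD against 14.1, 16.4 and 14.8 TPM in NC, where the groups overlapped (log2 change -0.12 ± 0.27, adjusted p = 0.711). It was at 16.9, 19.5 and 21.9 TPM in SFD@M against 10.8, 10.3 and 11.1 TPM in Blank (log2 change 1.12 ± 0.10, adjusted p = 1.94e-05).

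Cyp46a1, the cholesterol hydroxylase known from neurons, ran the other way in the knockdown experiment. It was at 1.73, 1.62 and 1.41 TPM in OTUB1_KD against 10.6, 8.75 and 9.20 TPM in NC (log2 change -2.43 ± 0.24, adjusted p = 1.72e-04). It was at 1.78, 0.74 and 0.59 TPM in SFD@M against 2.1, 1.89 and 2.09 TPM in Blank, and was not called there (log2 change -0.68 ± 0.40, adjusted p = 0.149). Cyp7a1, the rate-limiting enzyme of bile acid synthesis in liver, had 1 count in OTUB1_KD and 41 in NC, a ratio of 0.022 with a counting interval of 5.56e-04 to 0.12 (adjusted p = 0.0012), and 0 counts in SFD@M and 25 in Blank, where it was not tested. The 250 bases before the start of Cyp46a1 (RefSeq, GRCm38.p6, plus strand), shown because this gene had the largest fitted log2 fall in OTUB1_KD among the tested members with over 3 counts in each group, hold 4 GCGTG matches in capitals.
Cyp46a1 at chr12:108334066-108334315: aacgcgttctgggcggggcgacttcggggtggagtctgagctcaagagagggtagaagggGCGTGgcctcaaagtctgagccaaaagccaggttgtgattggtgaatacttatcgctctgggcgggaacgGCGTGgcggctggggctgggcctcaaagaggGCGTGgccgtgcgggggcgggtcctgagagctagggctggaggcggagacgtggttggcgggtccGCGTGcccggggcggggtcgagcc

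Of 6 genes of retinoic acid and vitamin D, Cyp26b1, which breaks down retinoic acid, was at 3.88, 22.6 and 4.93 TPM in OTUB1_KD against 0.97, 1.1 and 1.24 TPM in NC (log2 change 3.23 ± 0.73, adjusted p = 0.0074). It was at 13.1, 20.2 and 5.53 TPM in SFD@M against 0.66, 0.54 and 0.6 TPM in Blank (log2 change 4.46 ± 0.52, adjusted p = 9.02e-05). Library 2 was the highest of both OTUB1_KD and SFD@M. Cyp27b1, which makes the hormonal form of vitamin D, was at 0.65, 0.2 and 0.25 TPM in OTUB1_KD against 0.98, 0.99 and 1.02 TPM in NC (log2 change -1.25 ± 0.40, adjusted p = 0.028), and at 0.05, 0.07 and 0.07 TPM in SFD@M against 0.71, 0.82 and 0.91 TPM in Blank (log2 change -3.23 ± 0.36, adjusted p = 5.66e-05). The call against NC was lost without OTUB1_KD library 3 or without any 1 NC library, at log2 changes of -1.17, -1.31, -1.29 and -1.22 and adjusted p of 0.072 to 0.098. Cyp2r1, which starts the activation of vitamin D, was at 0.98, 1.29 and 0.85 TPM in SFD@M with 0 counts in Blank, at least 17.8-fold higher, and at 0.7, 1.25 and 0.92 TPM in OTUB1_KD with 0 counts in NC, where it was too low to be tested. The 4 genes of steroid hormone synthesis summed to at most 2.02 TPM in any library, and none was tested in either experiment. Cyp20a1, a P450 with no well known substrate, had the highest level of all members in NC and Blank. It was at 39.3, 26.6 and 22.1 TPM in OTUB1_KD against 37.5, 33.1 and 35.6 TPM in NC (log2 change -0.12 ± 0.22, adjusted p = 0.648), and lower at 25.3, 28.7 and 24.6 TPM in SFD@M against 48.2, 50.4 and 45.5 TPM in Blank (log2 change -0.61 ± 0.07, adjusted p = 7.64e-05).

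**Figure D5:**
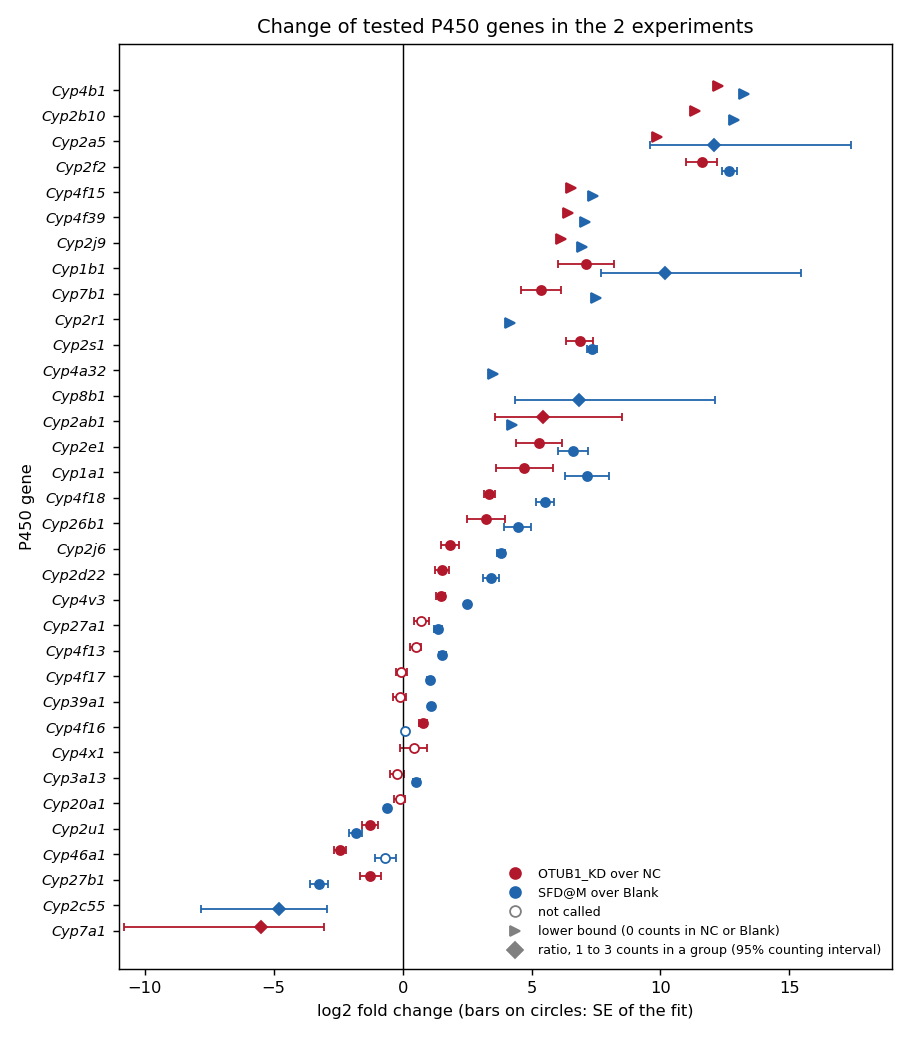
Log2 fold change of each P450 gene tested in OTUB1_KD over NC (red) or SFD@M over Blank (blue). Circles are fitted changes with their SE, filled where called, triangles are lower bounds against 0 counts, and diamonds are ratios with 95% counting intervals where a group had 1 to 3 counts. The upper 4 rows lie at or above a lower bound of 944-fold, and Cyp2u1 and Cyp27b1 lie below 0 and are called in both experiments. Cyp46a1 (called in OTUB1_KD only) and Cyp20a1 (called in SFD@M only) also lie below 0 in both.

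The same enzymes were compared between the groups with lung markers, SFD@M against OTUB1_KD, in which experiment and group cannot be told apart. Of 14914 genes tested 0.0134% were called by edgeR, 19.9% had an unadjusted p under 0.05 and 9.2% were called by DESeq2. Of 33 P450 genes 0 were called by edgeR, 6 had an unadjusted p under 0.05 and 2 were called by DESeq2, shares near or below those over all genes. Cyp2b10 had the smallest p, with 386, 314 and 363 TPM in SFD@M and 108, 156 and 137 TPM in OTUB1_KD, a log2 difference of 1.44 ± 0.23 whose adjusted p was 0.072. It was called by DESeq2 (adjusted p = 3.3e-07) and without OTUB1_KD library 2 (log2 difference 1.57, adjusted p = 0.015). Without OTUB1_KD library 2, 2 of 34 P450 genes were called higher and 1 lower, where 12.4% of all genes were called. Cyp4b1 (0.94 ± 0.31, adjusted p = 0.166) and Cyp4f15 (0.78 ± 0.27, adjusted p = 0.181) did not pass in edgeR although the groups did not overlap, and Cyp4b1 was called by DESeq2 (adjusted p = 0.037). Cyp1b1 had a log2 difference of -0.98 ± 0.72, which turned to 0.55 without OTUB1_KD library 1.

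Between the groups with few or no lung markers, Blank against NC, the P450 genes were mostly lower in Blank. Of 19 tested 3 were higher and 12 lower, where 74.3% of 12087 genes were called, 37% higher and 37.2% lower. Experiment and group cannot be told apart here either. Cyp1a1 had 0.08, 0.12 and 0.12 TPM in Blank and 0.98, 0.66 and 0.74 TPM in NC (log2 change -2.90 ± 0.42, adjusted p = 4.87e-09). Cyp46a1 had 2.1, 1.89 and 2.09 TPM in Blank and 10.6, 8.75 and 9.20 TPM in NC (log2 change -2.30 ± 0.13, adjusted p = 1.03e-26). Cyp4f18 (-1.78 ± 0.26), Cyp2j6 (-1.43 ± 0.18) and Cyp4f13 (-1.04 ± 0.10) were also lower. The 3 higher in Blank were Cyp2c55, at 1.17, 0.82 and 0.98 TPM in Blank and 0.18, 0.16 and 0.33 TPM in NC (2.08 ± 0.40, adjusted p = 3.34e-06), Cyp20a1 (0.40 ± 0.05) and Cyp4f16 (0.30 ± 0.07). Spread within these groups was small. A chi-square per gene between replicate libraries, which is 1 for counting noise alone, was 16.8 to 160.2 in SFD@M and OTUB1_KD, and 1.32 to 2.00 in Blank and NC.

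Whether a gene changed unequally in the 2 experiments was tested in 1 fit of all 12 libraries. Of 36 P450 genes tested 10 were called, 8 with a positive and 2 with a negative difference (the log2 change of SFD@M over Blank minus that of OTUB1_KD over NC), where 23.1% of 15304 genes were called, 12.4% positive and 10.8% negative. Positive values made up 53.5% of the calls over all genes on counts and 40.4% on log2(TPM + 1), and among the members 8 of 10 and 10 of 12. The values of the control groups enter this difference, so the counts of all 4 groups are given beside it. Cyp4f18 differed by 2.20 ± 0.37 (adjusted p = 0.0037), with 1602 counts in SFD@M and 34 in Blank, and 1286 in OTUB1_KD and 113 in NC. Cyp2j6 differed by 2.02 ± 0.39 (adjusted p = 0.0064), with 1139 counts in SFD@M and 79 in Blank, and 823 in OTUB1_KD and 206 in NC. Cyp46a1, lower in OTUB1_KD at -2.43 and at -0.68 in SFD@M, differed by 1.79 ± 0.47 (adjusted p = 0.022). It had 73 counts in SFD@M and 115 in Blank, and 112 in OTUB1_KD and 545 in NC. Cyp27b1, lower in both at -3.23 in SFD@M and -1.25 in OTUB1_KD, differed by -1.95 ± 0.55 (adjusted p = 0.028), with 7 counts in SFD@M and 68 in Blank, and 38 in OTUB1_KD and 82 in NC. Without single libraries of NC, SFD@M or Blank the calls of Cyp27b1, Cyp46a1 and Cyp4f16 were lost in some cases. Among the genes not called, those with 0 counts in both NC and Blank have no estimable difference. Cyp2f2, also not called, differed by 1.11 ± 0.66 (adjusted p = 0.246), with 140802 counts in SFD@M and 21 in Blank, and 76906 in OTUB1_KD and 22 in NC.

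The counts of partner lists stand against 39.9% higher and 25.8% lower over all genes in OTUB1_KD, and 49.5% higher and 38.7% lower in SFD@M. A list of 11 P450 partners held genes that hand electrons to the enzymes, and also Pgrmc1 and Pgrmc2, which associate with them. Of these partners 10 were tested, of which 3 were higher and 2 lower in OTUB1_KD, with a median log2 change of 0.31 (all genes 0.16). In SFD@M 5 were higher and 4 lower, with a median of 0.14 (all genes 0.23), shares close to those over all genes. Pgrmc2 was among the lower calls in both experiments, and Pgrmc1 among the higher calls in SFD@M. Por was at 114, 146 and 164 TPM in OTUB1_KD against 76.3 to 76.8 TPM in NC (log2 change 1.04 ± 0.19, adjusted p = 0.0028), and at 138, 176 and 210.2 TPM in SFD@M against 64.7 to 68.4 TPM in Blank (1.66 ± 0.14, adjusted p = 1.35e-05). Cyb5a, the cytochrome b5 of the endoplasmic reticulum, was higher by 2.58 ± 0.30 in OTUB1_KD and 2.43 ± 0.05 in SFD@M, while Cyb5b, that of the mitochondrial outer membrane, was lower by log2 changes of -0.89 ± 0.15 and -1.02 ± 0.07. Fdx1 was higher by 1.33 ± 0.17 and 1.80 ± 0.08. Of 8 genes of heme synthesis 3 were higher and 1 lower in OTUB1_KD and 1 higher and 2 lower in SFD@M. The first enzyme of that pathway, Alas1, was higher in both, by 1.24 ± 0.27 and 2.65 ± 0.10, while Cpox, a later one, was lower in both, at -0.81 ± 0.18 and -0.55 ± 0.09.

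Of 6 tested genes among the Ah receptor and its targets outside the family 3 were higher and 3 lower in both experiments. Ahr was higher by 1.03 ± 0.20 in OTUB1_KD (15.9 to 23.7 TPM, against 9.99 to 10.5 TPM in NC) and by 3.38 ± 0.11 in SFD@M (20.7 to 24.8 TPM, against 2.32 to 2.8 TPM in Blank). Aldh3a1, a target, was higher by 3.88 ± 0.50 and 7.16 ± 0.36. The targets Nqo1 and Tiparp were lower, Nqo1 by log2 changes of -2.66 ± 0.20 and -2.08 ± 0.31 and Tiparp by -1.73 ± 0.34 and -1.14 ± 0.08. Ahrr, the repressor of the receptor, was too low to be tested. Of 20 nuclear receptors that act on P450 genes, 7 of 16 tested were higher and 2 lower in OTUB1_KD, and 10 of 15 higher and 5 lower in SFD@M. Over all genes 39.9% were higher and 25.8% lower in OTUB1_KD, and 49.5% higher and 38.7% lower in SFD@M. Pparg was higher by 6.10 ± 0.43 and 8.18 ± 0.54, and Nr1h3, an oxysterol receptor, by 4.30 ± 0.36 and 3.47 ± 0.15. Nr5a1, a regulator of steroid hormone synthesis, was at 0.06, 0.03 and 0 TPM in SFD@M against 15.0 to 15.7 TPM in Blank (log2 change -8.65 ± 0.28, adjusted p = 7.10e-08), and at 5.55, 0.03 and 3.25 TPM in OTUB1_KD against 14.1 to 14.5 TPM in NC, where it was not called (adjusted p = 0.099).

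Other enzymes of drug metabolism were mostly higher in OTUB1_KD and SFD@M. Of 34 listed genes 31 were tested in OTUB1_KD. Of these 21 were higher and 3 lower, where 39.9% of all genes were higher and 25.8% lower. Their median log2 change was 3.59 (all genes 0.16). In SFD@M 32 were tested, 27 higher and 3 lower, where 49.5% of all genes were higher and 38.7% lower. Their median there was 5.28 (all genes 0.23). These medians are of fitted changes without bounds, for which the P450 genes had 2.54 in OTUB1_KD and 5.95 in SFD@M. Genes near 0 in NC and Blank, such as Ces1d, passed the filter through the group where they are high, so the medians describe tested genes only. Carboxylesterase Ces1d was at 224, 438 and 301 TPM in OTUB1_KD against at most 0.06 TPM in NC, and at 562 to 584 TPM in SFD@M against at most 0.05 TPM in Blank. Carbonyl reductase Cbr2 was at 2165.6, 5256 and 5974 TPM in OTUB1_KD against 29.4 to 33.1 TPM in NC, and at 6720 to 7107 TPM in SFD@M against 8.83 to 11.4 TPM in Blank. The glutathione transferase Gstp1, with Nqo1 and Adh7, was lower in both experiments (Gstp1 log2 changes -0.66 ± 0.20 and -0.56 ± 0.10). Of 12 genes of vitamin A and D handling 8 were higher and 4 not called in OTUB1_KD, and 8 were higher and 4 lower in SFD@M. These counts, and those of the steroid list below, have to be read against the same shares over all genes. Aldh1a1, which makes retinoic acid, was at 297, 716 and 491 TPM in OTUB1_KD against 0.11 to 0.21 TPM in NC (log2 change 11.62 ± 0.58), and at 874 to 1131 TPM in SFD@M against 0.05 to 0.1 TPM in Blank (13.96 ± 0.21). Of 9 partners of steroid synthesis 5 were tested, 3 higher and 1 lower in OTUB1_KD and 3 higher and 2 lower in SFD@M, with Hsd11b1, which activates glucocorticoids, higher by 7.02 ± 0.48 and 9.26 ± 0.24.

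The 3 P450 genes whose names fall outside the symbol pattern are given for completeness. Ptgis, the prostacyclin synthase of vessels, was at 127, 140.1 and 111 TPM in OTUB1_KD against 4.09, 3.2 and 3.63 TPM in NC (log2 change 5.38 ± 0.20, adjusted p = 1.20e-05), and at 136, 116 and 145 TPM in SFD@M against 5.66, 5.32 and 5.42 TPM in Blank (4.96 ± 0.12, adjusted p = 2.40e-08). Tbxas1, the thromboxane synthase of platelets and macrophages, was at 24.3, 11.6 and 24.2 TPM in OTUB1_KD against 0.06 to 0.13 TPM in NC (7.16 ± 0.51, adjusted p = 5.67e-05), and at 9.68, 10.3 and 6.68 TPM in SFD@M with 3 counts in Blank, a ratio of 195 with a counting interval of 66.7 to 945. Cyp51, of cholesterol synthesis, was at 28.1, 15.5 and 18.1 TPM in OTUB1_KD against 14.6 to 15.9 TPM in NC (0.58 ± 0.22, adjusted p = 0.052), and lower at 12.5 to 14.1 TPM in SFD@M against 26.6 to 27.8 TPM in Blank (-0.76 ± 0.06, adjusted p = 6.15e-06).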

How the data were processed

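RNA-seq of 12 mouse lung tumour libraries was analysed. Per the submitters' processing notes, the build was GRCm39 and the tools were RSEM 1.3.1, Bowtie2 and DESeq2 1.4.5, listed without role or order; strand handling was not stated. The authors deposited, per the file headers, an expected count, a TPM, an FPKM and a normalized count (used here as a signal) for each of 70659 transcripts. The normalized counts are the expected counts rounded up and multiplied by 1 factor per library, and 100% came out as whole reads within 0.001. The column codes of the Blank libraries begin with KD, while their labels give saline, and groups follow the labels.

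Values were summed over the transcripts of an Entrez gene, which was named from the RefSeq table (GRCm38.p6). 19155 of 19212 genes had a name, and counts in the others (0.146 to 0.342% per library) entered no list. Rounded expected counts were tested with edgeR 4.0.16 (R 4.3.3; filterByExpr, TMM, robust quasi-likelihood test, Benjamini-Hochberg adjustment, threshold 0.05) within the 2 groups compared, and over 12 libraries for unequal changes. All adjusted p-values in the text are from this edgeR fit unless DESeq2 1.42.0 or limma 3.58.1 is named, and they cover all genes tested. Scripts were tested on simulated data. Against 0 counts a fold is a bound from 3 counts over the group, and against 1 to 3 counts a ratio has an exact 95% interval; both cover counting error only. Coding sequences came from GENCODE M21. All replicate pairs differed beyond sampling noise.

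Members and lists were chosen with earlier results of these data known. Members are named with levels. Full statistics go to the 12 with the highest mean TPM, up to 8 called rises and 8 falls per experiment, members lower in both, the smallest p of the other contrasts, and 3 genes per partner list. Other members and partner genes were named after their values were seen. Alternatives were other scalings, filters, DESeq2, limma on log2(TPM + 1) and log2(TPM + 0.1), FPKM, leaving out each library, a replicate block, a fit of all libraries, and, added after seeing the data, the recovered whole reads.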

Additional observations from a re-analysis of the deposited data

Results flagged for a closer look

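The change in SFD@M over Blank differed from the change in OTUB1_KD over NC for 10 P450 genes in the edgeR test of that difference, which also holds whatever separates the experiments. The log2 difference was positive for Cyp4v3 (1.06), Cyp4f18 (2.20), Cyp4f17 (1.13), Cyp2j6 (2.02), Cyp2d22 (1.925), Cyp4f13 (1.07), Cyp39a1 (1.27) and Cyp46a1 (1.79). It was negative for Cyp4f16 (-0.65) and Cyp27b1 (-1.95). In Blank against NC, which shares its libraries with this difference, the log2 changes were -0.73 for Cyp4v3, -1.78 for Cyp4f18, -0.86 for Cyp4f17, -1.43 for Cyp2j6, -0.99 for Cyp2d22, -1.04 for Cyp4f13, -0.53 for Cyp39a1, -2.30 for Cyp46a1 and 0.30 for Cyp4f16, and Cyp27b1 was not called there. The value of Cyp46a1 was 1.15 without SFD@M library 1.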

How the results depend on the processing

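Most results kept direction and side of the threshold: of 1918 alternative log2 changes of named genes 1855 did, 35 fell below the threshold, 23 passed it and 5 reversed. Without a filter on low counts 8 of 70 P450 genes tested were lower in OTUB1_KD against NC, where 3952 of all 18446 genes were. In SFD@M against Blank 7 of 75 were lower, where 5960 of all 18255 genes were. With all 12 libraries in 1 fit, 3 of 36 were higher and 2 lower in SFD@M against OTUB1_KD (989 and 1874 of all 15304 genes). In Blank against NC 1 was higher and 7 lower in that fit (760 and 1939 of all genes). DESeq2 called 2 of 33 higher in SFD@M against OTUB1_KD, where it called 475 of all 14914 genes higher. In FPKM the summed level was 2813.65 in SFD@M, 80.2 in Blank and 99.6 in NC. When single libraries were left out, 2 to 4 P450 genes were lower in OTUB1_KD against NC (2665 to 4719 of all genes). In SFD@M against OTUB1_KD 0 to 2 were higher and 0 to 1 lower (0 to 544 and 0 to 1331 of all genes). Reversed log2 values were those of Cyp20a1 in OTUB1_KD against NC (-0.37 to 0.041 without single libraries), Cyp4f16 in SFD@M against Blank (-0.17 and -0.18 with limma on log2(TPM + 1) and log2(TPM + 0.1)), Cyp1b1 in SFD@M against OTUB1_KD (-1.42 to 0.55 without single libraries) and the unequal change of Cyp2c55 (-3.03 to 0.61 without single libraries). The unequal changes of Cyp27b1, Cyp46a1 and Cyp4f16 missed the threshold without 7, 3 and 7 single libraries, and that of Cyp27b1 also with limma. Apart from the filter, the cause was not tested. Depth limits genes with few counts, such as Cyp2r1 and Cyp8b1 in OTUB1_KD.

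Libraries of different groups share replicate numbers, and the labels do not say whether these pair them. Deviations of same-numbered libraries had correlations of -0.256 to 0.041, and those of other pairs -0.21 to 0.223. NC and Blank libraries differed little beyond counting noise (chi-square per gene 1.32 to 2.00), so this check cannot exclude pairing. With the replicate block 18 of 30 P450 genes were higher and 4 lower in OTUB1_KD against NC (5612 and 3750 of all 14785 genes). In SFD@M against Blank 26 of 32 were higher and 4 lower (7292 and 5718 of all 14824). In SFD@M against OTUB1_KD 0 of 33 were called (3 higher and 4 lower of all 14914). In Blank against NC 3 of 19 were higher and 12 lower (4465 and 4482 of all 12087). Unequal changes numbered 9 of 36 (1721 positive and 1295 negative of all 15304), with Cyp27b1 lost (adjusted p = 0.051).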
